A study of Mus musculus with 9 samples.

Results

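A set of 10 genes that mark or regulate marginal zone (MZ) B cells and B-1 cells was followed in 9 RNA-seq libraries of mouse splenic B-lineage cells. The 10 genes, Cr2, Notch2, Dtx1, S1pr3, Cd9, Cd1d1, Cd5, Bhlhe41, Hes1 and Plac8, were taken as a list of names from the 29995 genes of the table without immunoglobulin (Ig) genes. The list was chosen with earlier results of these data known. All 10 were among the 12892 genes that passed a filter on low values. Every mouse was of the genotype B6.Blimp1GFP/+, in which 1 allele of Prdm1 reports as GFP, was 12 weeks old and had received 50 µg of NP-LPS, the hapten NP on lipopolysaccharide, intraperitoneally 4 days earlier. Cells of all groups were sorted as live singlets after a dump gate that left out cells with CD4, CD8a, Ter-119 or F4-80, which mark T cells, erythroid cells and macrophages. Naive B cells were IgD high, B220+ and NP-. NP-specific B cells were IgD-, B220+ and NP+ and had neither GFP nor CD138. Plasma cells (PCs) were IgD- and NP+, carried GFP and CD138 and could have B220 or not. There were 3 libraries in each of these 3 groups. All of them came from immunized mice, so no group stands for an unimmunized animal, and no group was sorted on an MZ or B-1 surface marker.

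MZ B cells sit at the border of the white pulp, where blood-borne antigen arrives, and B-1 cells are a self-renewing B cell lineage known from the body cavities. Both answer antigens such as LPS conjugates without T cell help, and both carry little surface IgD, so an IgD high gate favours follicular B cells. MZ identity is maintained by Notch2: ligand binding frees the intracellular part of the receptor, which joins the DNA-binding protein RBPJ and switches on targets such as Hes1 and Dtx1. The question here was how genes tied to these subsets were distributed over naive, NP-specific and antibody-secreting cells.

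The libraries held 28490278 to 31719387 estimated reads without Ig genes in naive B cells, 34918379 to 38602257 in the NP-specific group and 20189947 to 22137412 in PCs, so low values are least precise in PCs. B cell markers were present and lowest in PCs (Cd79a 3443 to 3736 TPM in naive, 2174 to 2346 in the NP-specific group and 461.1 to 509.1 in PCs, and Ms4a1 765.8 to 966.9, 1114 to 1388 and 106.5 to 112.3), where TPM is an abundance per transcript length and library total. The sum of 4 PC markers was highest in PCs (118.1 to 138.8, 166.3 to 182.2 and 4723 to 5805), most of it from Xbp1 (means of 118.9, 156.0 and 4174). From naive to NP-specific B cells the mean of Sdc1 went down (7.02 to 0.943 TPM). Those of Prdm1 (2.50 to 4.76), Tnfrsf17 (0.256 to 10.4) and Xbp1 went up. A pair of libraries stood apart by transcripts of other cells. NP-specific replicate 2 had 49.1 TPM over 5 neutrophil markers, against 0.321 and 0.634 in the rest of its group, and PC replicate 3 had 4613 TPM over 6 liver markers, against 26.5 and 22.8, with 31.2 over the neutrophil markers and 43.3 over 7 macrophage markers, against 3.79 and 2.39. Results are therefore also given without these 2 libraries, a setting chosen after seeing the data, which left 6, 8 and 8 of the 10 genes past the thresholds in the 3 comparisons, where 2757, 4897 and 4298 of all 12892 genes passed. The 5 dendritic cell markers summed to 21.9 to 24.5 TPM in NP-specific B cells, 7.25 to 8.10 in naive and 7.69 to 9.59 in PCs, most of the first from Flt3 (means of 17.7, 2.16 and 4.83). The paper names 3 mice as the source of the NP-specific B cells and PCs, so libraries of these groups may share animals. Nothing ties a library's replicate number to a mouse, so p-values measure the spread between these libraries.

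The levels of the 10 genes, given as TPM, fell into 3 patterns. Cr2, Notch2 and Dtx1 had their highest mean in naive B cells, S1pr3, Cd1d1, Cd5, Bhlhe41, Hes1 and Plac8 in NP-specific B cells, and Cd9 in PCs. A gene was counted as higher or lower when its limma adjusted p was under 0.05 and its fold change over 2. Between NP-specific and naive B cells 6 of 10 genes passed, against 18.5% of all genes tested: Bhlhe41, S1pr3, Hes1, Cd9 and Plac8 were higher (8.13% of all genes) and Cr2 was lower (10.4%). The median log2 change of all 10 genes was 1.06, against -0.16 over all genes tested. Between PCs and naive B cells 9 of 10 passed, against 37.8% of all genes: Cd9 and Bhlhe41 were higher (11.4%) and Cr2, Dtx1, Notch2, S1pr3, Plac8, Hes1 and Cd5 were lower (26.3%). The median of the 10 was -2.48, against -0.47. Between PCs and NP-specific B cells 8 of 10 passed, against 32.2% of all genes: all 8 were lower (22.3%) and none was higher (9.93%), with a median over the 10 of -3.67 against -0.30. By a plainer count, the 3 libraries of one group lay wholly above those of the other for 7 genes and wholly below for 2 in NP-specific against naive B cells, against 23.6 and 32.4% of all genes (55.9% in either direction). For PCs against naive B cells this held for 1 gene above and 8 below, against 21.0 and 48.7% (69.7% in either direction), and for PCs against NP-specific B cells for 1 above and 9 below, against 17.3 and 40.9% (58.2% in either direction). The 3 comparisons share groups and are not independent of each other. The 10 genes were chosen with earlier results of these data known, so these shares are descriptive. Cd5 passed the filter on low values only through the NP-specific group, where it is highest, and it is counted among the falls in PCs.

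**Figure D1:**
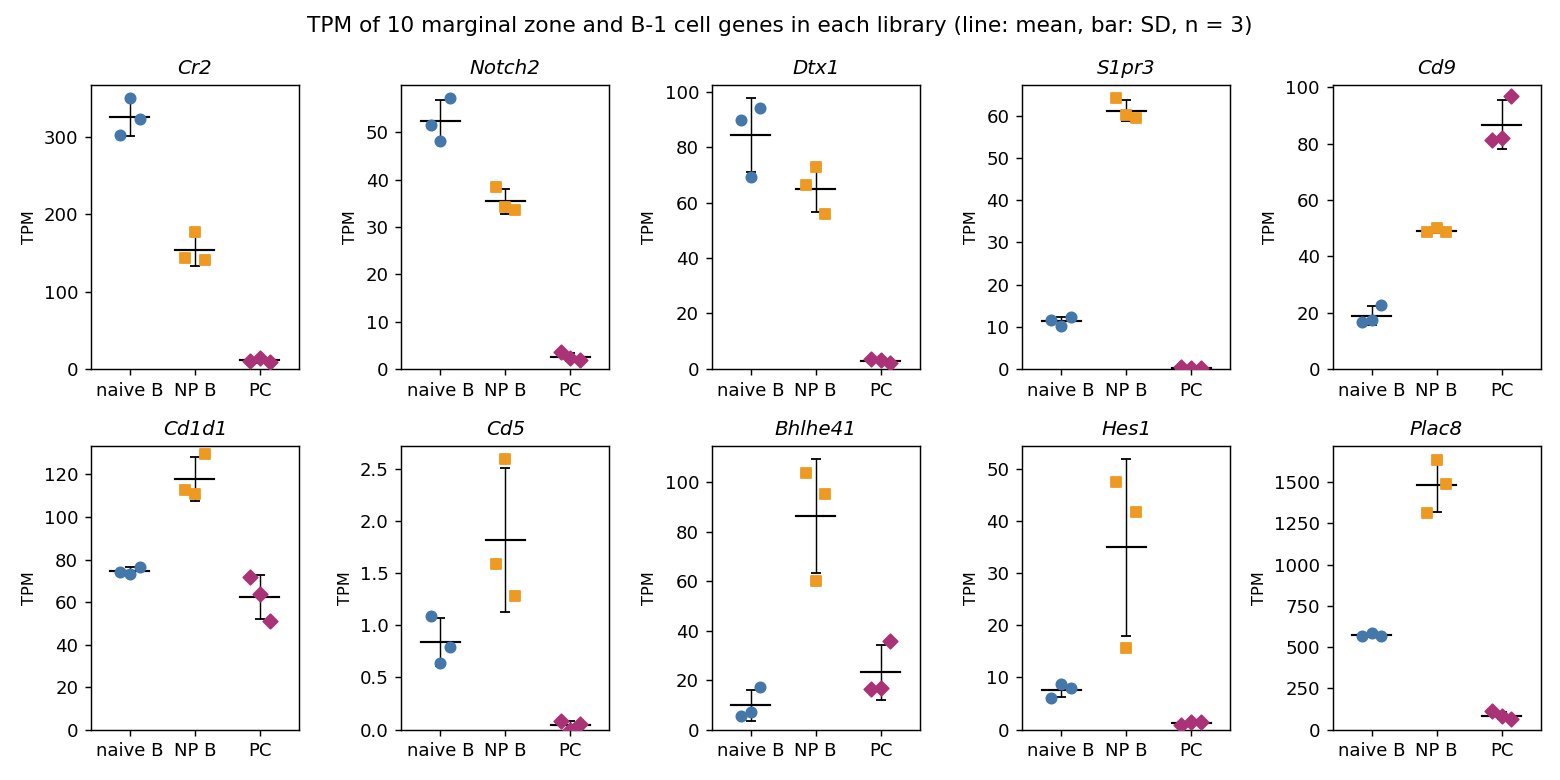
TPM (table without Ig genes) of the 10 genes in each library of naive B cells, NP-specific B cells (NP B) and PCs. Points are libraries, lines are means and bars are SD of 3 libraries. Cr2 steps down from 325.6 to 153.8 to 10.9, S1pr3 peaks in NP-specific B cells at 61.3 and Cd9 climbs from 18.9 to 49.2 to 86.8.

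Promoter sequences are shown for 3 genes, Cr2, S1pr3 and Bhlhe41, of which the first falls and the others rise in NP-specific B cells. They are read 5′ to 3′ on the gene's strand and end at the base before the RefSeq start (GRCm38.p6), except that Bhlhe41 is shown only where it lies outside the GENCODE gene. Capitals mark a match to TGGGAA, the core bound by RBPJ, or to CACGTG, an E-box bound by Bhlhe41-type repressors.
Cr2, chr1:195176720-195176969, minus strand: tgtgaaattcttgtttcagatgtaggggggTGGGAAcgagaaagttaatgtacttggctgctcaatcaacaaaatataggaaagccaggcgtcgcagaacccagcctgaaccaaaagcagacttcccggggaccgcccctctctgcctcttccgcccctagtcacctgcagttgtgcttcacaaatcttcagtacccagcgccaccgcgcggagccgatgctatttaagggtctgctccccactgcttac
S1pr3, chr13:51408368-51408617, plus strand: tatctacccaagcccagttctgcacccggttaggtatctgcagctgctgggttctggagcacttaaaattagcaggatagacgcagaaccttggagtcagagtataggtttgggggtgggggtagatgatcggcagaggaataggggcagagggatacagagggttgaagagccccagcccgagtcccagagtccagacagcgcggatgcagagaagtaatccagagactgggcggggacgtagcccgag
Bhlhe41, chr6:145865559-145865670, minus strand: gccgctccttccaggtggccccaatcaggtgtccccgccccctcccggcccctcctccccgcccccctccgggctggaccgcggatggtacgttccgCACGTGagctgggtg
Both strands of the 250 bases were searched in the 8 genes with a promoter entry. TGGGAA or its reverse complement TTCCCA was found in Cr2 (bases -220 to -215 from the start), Cd9 (-211 to -206) and Cd5 (-215 to -210), 3 of 8 genes, and in 21.6% of 32851 promoters. CACGTG was found in Bhlhe41 alone (bases -153 to -148) and in 6.02% of promoters. GTGAAAG or CTTTCAC, a core bound by Blimp1, was in none of the 8 and in 3.57% of promoters. The matches describe letters in these windows and are not evidence of binding.

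Notch2 encodes the receptor on which MZ B cells depend (chr3:98013527-98150361, plus strand, GENCODE M21). Its TPM was 51.6, 48.2 and 57.2 in the naive libraries, 38.5, 34.2 and 33.5 in the NP-specific libraries and 3.56, 2.31 and 1.96 in the PC libraries. The 3 groups did not overlap. NP-specific B cells were lower than naive B cells by less than 2-fold (log2 change -0.57 ± 0.13, SE, limma adjusted p = 0.00618). In PCs Notch2 fell by 4.12 ± 0.22 against the naive group (limma adjusted p = 5.3e-08) and fell by 3.56 ± 0.22 against NP-specific B cells (2.5e-07). Of the other receptors, Notch1 had means of 6.21, 6.52 and 10.2 TPM and passed no comparison, and Notch3 and Notch4 were below the filter. The unclassified transcripts Gm42819 and Gm42820 overlap Notch2 on its strand, and how reads were divided among them rests on the pseudoalignment.

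Dtx1 encodes Deltex, a ubiquitin ligase and classical Notch target that is high in MZ B cells (chr5:120680202-120711927, minus strand). It had 89.9, 69.1 and 93.9 TPM in naive B cells, 66.4, 72.8 and 55.9 in the NP-specific group and 3.41, 3.26 and 2.27 in PCs. Naive and NP-specific libraries overlapped, since the highest NP-specific library lay above the lowest naive one (log2 change -0.38 ± 0.15, 95% interval -0.70 to -0.05, limma adjusted p = 0.0606). The PC libraries were far below both groups, with log2 changes of -4.62 ± 0.26 and -4.24 ± 0.26 (limma adjusted p = 9.3e-08 and 2.5e-07).

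Hes1, the transcriptional repressor that serves as a general Notch target (chr16:30064384-30067796, plus strand), was highest in NP-specific B cells. Its TPM was 6.15, 8.71 and 8.01 in naive B cells, 47.4, 15.6 and 41.6 in the NP-specific group and 0.933, 1.54 and 1.40 in PCs. No libraries of different groups overlapped, but NP-specific replicate 2 was 3.04 times below the highest library of its group. Hes1 rose by a log2 change of 1.98 ± 0.42 in NP-specific against naive B cells (adjusted p = 0.00361, limma) and in PCs fell by 2.19 ± 0.65 against naive (0.0131) and fell by 4.17 ± 0.60 against NP-specific B cells (0.000145). Replicate 2 is the NP-specific library with neutrophil transcripts. Without that library and PC replicate 3 the rise of Hes1 was 2.47 (limma adjusted p = 1.6e-05). In NP-specific B cells, then, Hes1 was higher than in naive B cells, Notch2 was lower by less than 2-fold and Dtx1 did not pass the test.

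A wider list of 36 Notch pathway genes, which includes these 3, had 26 members past the filter. In NP-specific against naive B cells Hes1 was higher and Lfng, Dll1 and Maml3 were lower, 4 of 26 against 18.5% of all genes, with a median log2 change of -0.31 against -0.16. That share is near the background. Lfng encodes a fringe glycosyltransferase that modifies Notch receptors and alters their response to ligands. It had 11.3, 12.9 and 12.0 TPM in naive B cells, 0.634, 1.17 and 0.833 in the NP-specific group and 0.0481, 0 and 0.0733 in PCs, so every group lay apart (log2 change -3.22, limma adjusted p = 5.1e-06, for NP-specific against naive B cells). Dll1, a Notch ligand, had means of 3.74, 0.798 and 0.489 TPM, and Maml3, a coactivator of the RBPJ complex, had 4.13, 1.38 and 1.92. The target Hes5 had means of 10.7 and 10.6 TPM in naive and NP-specific B cells, and Nrarp, another target, was under 0.7 TPM in every library. PCs differed from naive B cells in 11 of 26 genes, against 37.8% of all genes, of which Fbxw7, a ubiquitin ligase that degrades active Notch, was the only one higher (7.58 to 16.8 TPM, log2 change 1.09). The largest of the 10 falls, 10 of 26 against 26.3% of all genes in that direction, were those of Dtx1, Lfng and Notch2, and the list's median was -0.90 against -0.47. Against NP-specific B cells 7 were lower in PCs, led by Dtx1, Hes1 and Notch2, and none was higher, 7 of 26 against 22.3% of all genes in that direction, with a median of -0.36 against -0.30. Nothing particular to the list is read from these counts. Lfng and Dll1 passed the filter only with their naive libraries, where they are highest. Of the genes for the proteases that cut the receptor, Psen2, presenilin 2, fell in PCs by 1.31 against naive and by 1.32 against NP-specific B cells (limma adjusted p = 0.0014 and 0.0015). Presenilin 1, nicastrin and Adam10 passed in no comparison (means for Ncstn of 90.4, 77.2 and 108.2 TPM and for Adam10 of 39.5, 39.8 and 30.6).

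**Figure D2:**
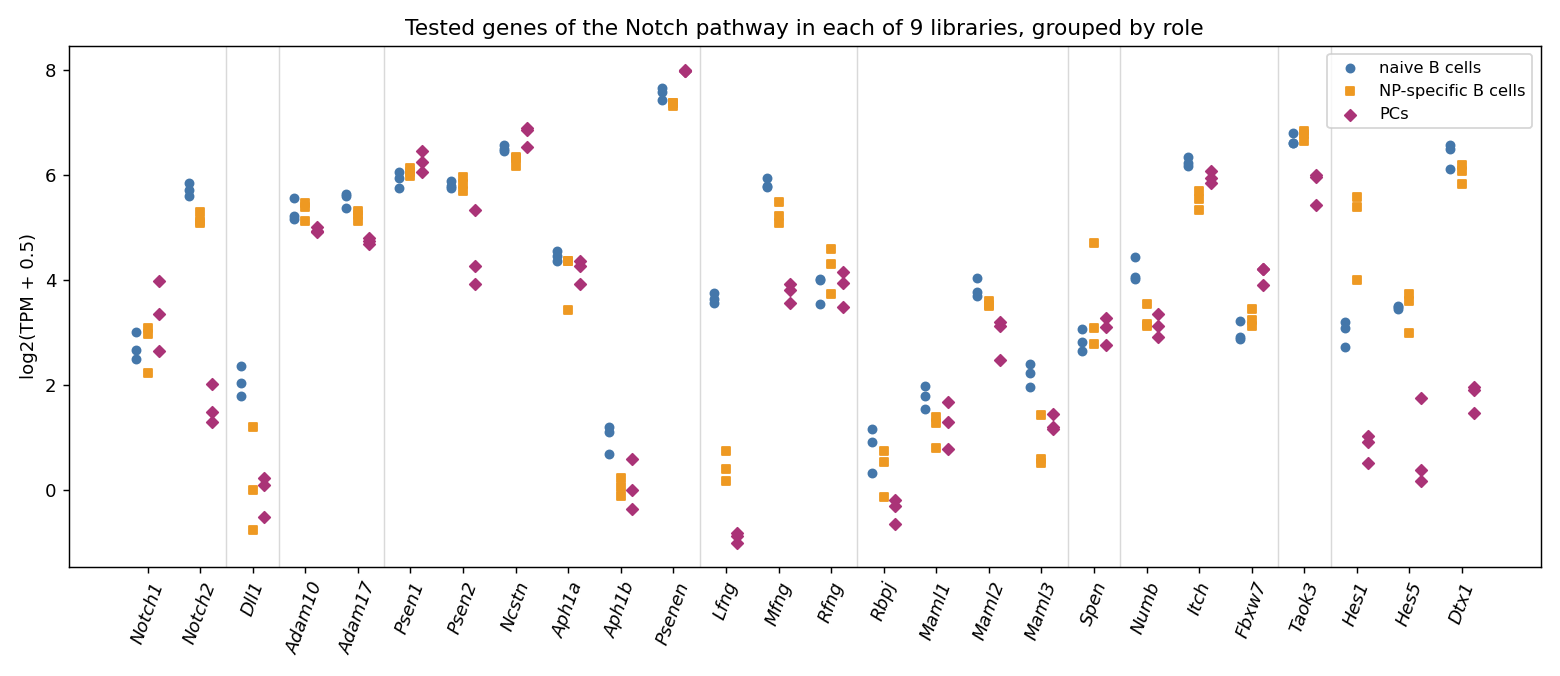
Levels of the 26 Notch pathway genes that passed the filter, as log2(TPM + 0.5), in each of 9 libraries, with genes separated by role from receptors (left) to targets (right). Notch2, Dtx1 and Hes5 are far lower in PCs than in the other groups, Lfng and Dll1 are already low in NP-specific B cells, and of the 3 targets Hes1 is the one higher there.

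Cr2 encodes CD21 and CD35, the complement receptors whose high surface level defines MZ B cells (chr1:195136811-195176716, minus strand; promoter above). TPM was 303, 350.3 and 323 in naive, 143, 177 and 142 in NP-specific and 10.05, 14.2 and 8.40 in PC libraries. The groups were separate at every step. Cr2 fell by a log2 change of 1.09 ± 0.12 in NP-specific against naive B cells (limma adjusted p = 7.4e-05), 2.12-fold in mean TPM. This passes the fold threshold by little, and with median-of-ratios scaling the change was -0.98, under 2-fold. Relative to the median of all genes tested it was -0.93 and -0.94 under the 2 scalings. In PCs Cr2 fell by 4.87 ± 0.19 against naive (5.6e-09, limma) and fell by 3.78 ± 0.19 against NP-specific B cells (5.7e-08). Cd81, a tetraspanin partner of CD21, differed by under 2-fold in every comparison. Cr2 is also a gene of follicular dendritic cells, whose 4 markers summed to 6.20 to 9.79 TPM in the naive group, 3.83 to 4.42 in the NP-specific group and 6.23, 6.56 and 113.9 in PCs. Of the 113.9 TPM, in PC replicate 3, Clu made up 101.4, while Cxcl13 was at 0 there. Naive and NP-specific B cells were gated as B220+ and PCs as carrying GFP and CD138. The part of follicular dendritic cells in the Cr2 level was not tested.

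S1pr3 encodes a receptor for sphingosine 1-phosphate that, with S1pr1, positions MZ B cells (chr13:51408639-51422797, plus strand; promoter above). It had 11.7, 10.1 and 12.2 TPM in the naive libraries, 64.1, 60.1 and 59.6 in the NP-specific ones and 0.444, 0.102 and 0.237 in PCs. Naive and NP-specific libraries were tight, with a spread of 1.21 and 1.08 times between highest and lowest, and well apart. S1pr3 rose by 2.38 ± 0.14 in NP-specific B cells (limma adjusted p = 1.5e-06), 5.41-fold in mean TPM. In PCs, with 37, 9 and 20 estimated reads, it fell by 3.98 ± 0.29 against naive (6.4e-07, limma) and fell by 6.36 ± 0.27 against NP-specific B cells (1.5e-08). The offset of 0.5 shrinks the PC changes. By mean TPM NP-specific B cells were 234.7 times PCs, and over all alternatives the log2 change between them lay between -8.01 and -5.63. Other receptors of the family went different ways in NP-specific against naive B cells. S1pr2, which confines cells to germinal centres, rose from 0.589 to 1.00 TPM to 28.6 to 43.6 (log2 change 4.85), S1pr4 fell from 96.7 to 101 to 30.9 to 39.9 (limma adjusted p = 7.7e-06), and S1pr1, which guides exit, was lower by under 2-fold (-0.45). A long noncoding RNA, Gm32834, overlaps S1pr3 on the other strand. The library kit does not mark strand, and how reads were divided between the pair rests on the pseudoalignment.

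Cd9 encodes a tetraspanin found on MZ B cells, B-1 cells and plasma cells (chr6:125460266-125494791, minus strand). Its TPM was 16.7, 17.3 and 22.7 in naive B cells, 48.7, 50.0 and 48.8 in the NP-specific group and 81.5, 82.2 and 96.8 in PCs. Each group lay above the one before it without overlap. Cd9 rose by 1.36 ± 0.15 from naive to NP-specific B cells (limma adjusted p = 5.4e-05) and by 2.17 ± 0.14 from naive B cells to PCs (2.7e-07), the latter under 2-fold with Ig genes kept (0.97, or 2.37 above the median of all genes tested). PCs and NP-specific B cells differed by 0.81 ± 0.12 (limma adjusted p = 0.000197), under 2-fold. It was past 2-fold with median-of-ratios scaling (1.2) and quantile normalization (1.11), and its direction turned to -0.38 with the Ig genes left in. Relative to the median of all genes tested, Cd9 in PCs was then 0.89 above NP-specific B cells, against 1.11 with them left out. Among other tetraspanins, Cd81 was above naive B cells in every library of both other groups, by under 2-fold (log2 change 0.80 and 0.70, limma adjusted p = 0.00027 and 0.00026), while Cd37 and Cd82 fell in PCs (log2 change -3.10 and -2.22 against naive B cells) and Cd53 and Cd63 passed no comparison. Cd151 was lower in NP-specific than in naive B cells (log2 change -1.08, limma adjusted p = 0.0178). Platelets also carry Cd9, and 5 platelet markers summed to 1.90 to 2.87 TPM in naive B cells, 0.0837 to 1.79 in the NP-specific group, where Pf4 was at 0, and 2.54, 5.86 and 9.10 in PCs. PCs were gated as live singlets with GFP and CD138, and the part of platelets in the PC level of Cd9 was not tested. Noncoding transcripts on the other strand overlap Cd9 as well.

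Cd1d1 encodes the molecule that presents lipids to NKT cells and is high on MZ B cells (chr3:86995834-86999441, minus strand). It had 74.4, 73.3 and 76.7 TPM in naive B cells, 112.7, 110.7 and 129.6 in the NP-specific group and 71.6, 64.0 and 51.2 in PCs. NP-specific libraries were above all others, but no comparison reached 2-fold with Ig genes left out. The log2 changes were 0.64 ± 0.13 for NP-specific against naive B cells (limma adjusted p = 0.00246), -0.92 ± 0.13 for PCs against NP-specific B cells (0.000121) and -0.28 ± 0.13 for PCs against naive B cells (0.0911). With median-of-ratios scaling the last was 0.21. Relative to the median of all genes tested it was 0.193 with scaling to the column sum and 0.195 with median-of-ratios scaling. Without PC replicate 1 the difference between PCs and NP-specific B cells was -1.03, just past 2-fold. With Ig genes kept, PCs were past 2-fold below both naive (-1.48) and NP-specific B cells (-2.10). Relative to the median of all genes tested these changes were -0.07 and -0.83. Cd1d2, the neighbouring near-copy that is a pseudogene in some strains, had 0.544 to 2.37 TPM over all libraries, and how reads were divided between the pair rests on the pseudoalignment.

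Cd5, the surface glycoprotein that separates B-1a from other B cells (chr19:10717116-10739002, minus strand), was near the limit of detection. TPM was 1.09, 0.637 and 0.796 in naive B cells, 1.58, 2.59 and 1.28 in the NP-specific group and 0.0815, 0 and 0.0552 in PCs. The groups did not overlap, but these values rest on 123, 325 and 5 estimated reads in all. Cd5 passed the filter only with its NP-specific libraries. NP-specific B cells were at a log2 change against the naive group of 0.76 ± 0.31 (95% interval 0.06 to 1.45, limma adjusted p = 0.0743), which did not pass, though under quantile normalization the change was 1.16 and passed. Per read of depth the ratio was 2.20 (1.78 to 2.72, counting error only). In PCs it fell by 1.29 ± 0.37 against the naive group (limma adjusted p = 0.0115) and fell by 2.05 ± 0.35 against the NP-specific group (0.000512). The first of these calls was under 2-fold with median-of-ratios scaling (-0.80), quantile normalization (-0.78), an offset of 1 (-0.81) and Ig genes kept (-0.86, or 0.54 above the median of all genes tested). Relative to that median the change was -0.82 with scaling to the column sum and also -0.82 with median-of-ratios scaling. The offset of 0.5 added before the logarithm shrinks these values, and per read of depth naive B cells had 17.2 times (7.18 to 54.0) and NP-specific B cells 37.8 times (16.0 to 117) the reads of PCs. In no group did Cd5 reach the level of any other of the 10 genes. T cells, against which the dump gate was set, also express Cd5, and the 7 T cell markers summed to 6.48 to 8.14 TPM in naive B cells, 4.05 to 5.57 in the NP-specific group and 4.77 to 8.67 in PCs. In the 3 NP-specific libraries Cd3d had 2.57, 2.12 and 1.52 TPM, Cd8a 0.993, 1.42 and 0.776 and Cd3e 0, 0.129 and 1.15. There Cd3g lay at 0 to 1.08, Cd4 at 0.211 to 0.231, Cd8b1 at 0.271 to 0.825 and Thy1 at 0. The part of T cells in the Cd5 level was not tested. Cd6, a T cell and B-1a relative of Cd5, was below the filter.

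Bhlhe41, a basic helix-loop-helix repressor needed for B-1a cells (chr6:145858243-145865558, minus strand; promoter above), showed the largest rise of the 10 in NP-specific B cells. It had 5.45, 7.06 and 17.2 TPM in naive B cells, 103.8, 60.2 and 95.4 in the NP-specific group and 16.6, 17.0 and 36.1 in PCs. All NP-specific libraries were above all others, whereas naive replicate 3 lay within the PC range. The log2 change from naive to NP-specific B cells was 3.19 ± 0.41 (limma adjusted p = 0.000176), 8.75-fold in mean TPM, and it stayed between 2.87 and 3.65 as each library was left out. In PCs it fell by 1.93 ± 0.34 against NP-specific B cells (0.000679, limma) and was higher than in naive B cells by 1.25 ± 0.45 (0.0333). The last call ended without naive replicate 1 (0.94, limma adjusted p = 0.131), naive replicate 2 (1.11, 0.101) or PC replicate 3 (0.89, 0.106) and without both NP-specific replicate 2 and PC replicate 3 (0.89, 0.0577), and with Ig genes kept the change was 0.10. PC replicate 3, the highest PC library, is the one with liver transcripts. Gm43909, an unclassified transcript, overlaps Bhlhe41 on the other strand. The paralogue Bhlhe40 did not follow: it had 23.0 to 31.5 TPM in naive B cells, 22.2 to 25.2 in the NP-specific group and 0 to 2.53 in PCs.

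Plac8, which encodes a small cysteine-rich protein (chr5:100553725-100572245, minus strand), was the most abundant of the 10 in naive and NP-specific B cells. TPM was 565.8, 582.5 and 565.7 in naive B cells, 1311, 1634 and 1490 in the NP-specific group and 111.1, 80.7 and 65.1 in PCs. The groups were far apart relative to their spread. Plac8 rose by 1.36 ± 0.14 in NP-specific B cells (limma adjusted p = 3.1e-05) and in PCs fell by 2.77 ± 0.16 against naive (1.3e-07) and fell by 4.13 ± 0.16 against NP-specific B cells (5.6e-09). Without NP-specific replicate 2 and PC replicate 3 the rise was 1.28. In these bulk libraries a lower share of cells with a transcript and less of it per cell cannot be told apart, for this gene as for the others.

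**Figure D3:**
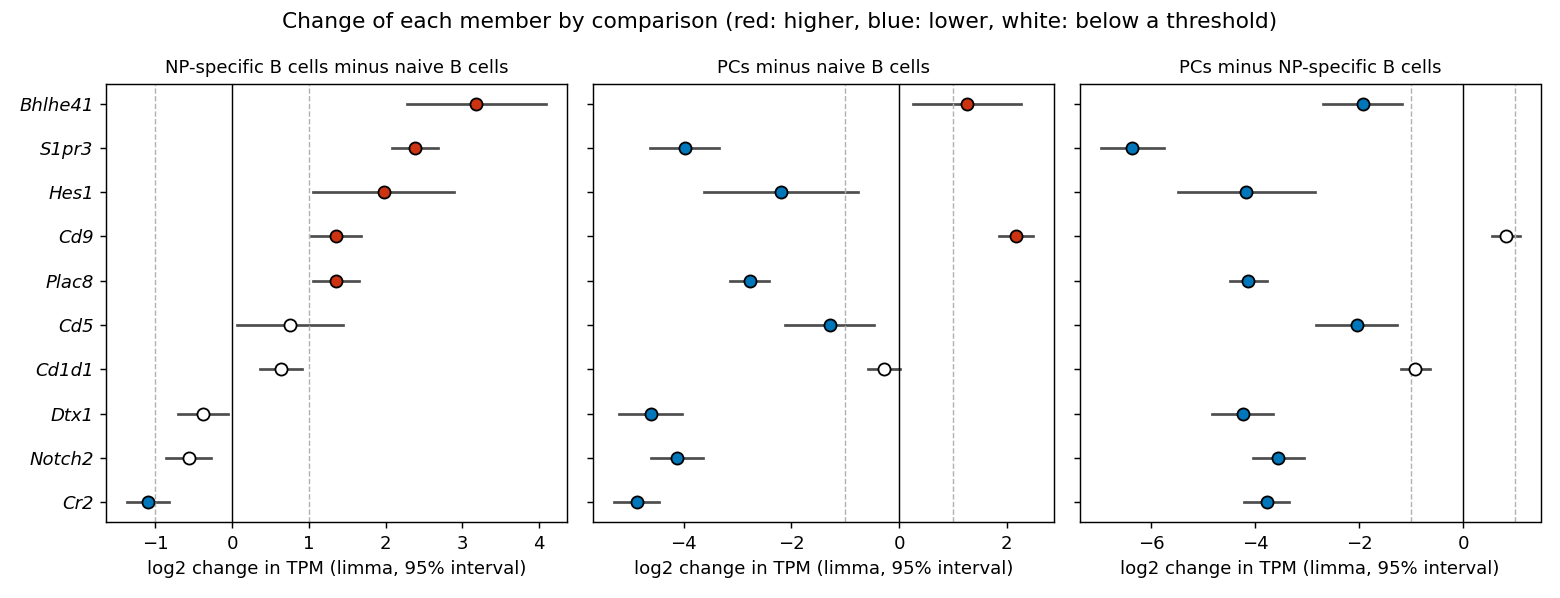
Log2 change of each of the 10 genes in the 3 comparisons, with limma's 95% interval (horizontal line), the 2-fold thresholds (dashed) and filled points where a gene passed as higher (red) or lower (blue). In NP-specific against naive B cells the genes range from Bhlhe41 at 3.19 to Cr2 at -1.09, and against both other groups PCs are lower for 7 genes, with Cd9 to the right of 0 in every panel.

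Within each group the genes formed an order, which is on the TPM scale and so allows for length. In naive B cells it ran Plac8, Cr2, Dtx1, Cd1d1, Notch2, Cd9, S1pr3, Bhlhe41, Hes1 and Cd5, from 571.3 to 0.841 TPM, and the libraries of Dtx1 and Cd1d1, of S1pr3 and Bhlhe41 and of Bhlhe41 and Hes1 overlapped. Bhlhe41 was the eighth in that order and the fourth in NP-specific B cells, where the libraries of Bhlhe41 and Dtx1, of Dtx1 and S1pr3 and of Notch2 and Hes1 overlapped. In PCs Cd9, Plac8 and Cd1d1 led with 86.8 ± 8.67, 85.6 ± 23.4 and 62.3 ± 10.3 TPM (SD, n = 3), with Cd9 and Plac8 and also Plac8 and Cd1d1 overlapping, and S1pr3 and Cd5 came last.

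The genes whose profile was most like that of each member were found by the root mean square difference of centred log2(TPM + 0.5) values over the 9 libraries. Closest of all was Ipo11 to Cd1d1 (0.0837), and the nearest to Cr2 were Fam65b (0.145) and the class II gene H2-Aa (0.214). Slc44a2 lay nearest to Dtx1 (0.144), Plekho1 to Notch2 (0.190) and Fhit to Cd9 (0.157). S1pr3 had no close match, its nearest being Fcrl5, an Fc receptor-like gene of MZ B cells (0.512). For Bhlhe41 these were Hells (0.404) and Cd36 (0.441), and for Hes1 Marcks (0.412). Cd5 lay nearest to Rp2h (0.180) and Plac8 to Armc3 (0.251). The offset of 0.5 flattens the profile of a gene as low as Cd5. Its means were 0.841, 1.82 and 0.0456 TPM in naive B cells, NP-specific B cells and PCs, against 23.9, 41.4 and 10.8 for Rp2h.

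A second list of 13 genes known from MZ or B-1 cells was examined beside the 10. It too was chosen with earlier results of these data known, so its counts are descriptive. Il5ra was listed at 0 in every library and Lin28b was below the filter, which left 11. Of these, Ctla4 passed the filter only through PCs and Tlr3 only with its NP-specific libraries. Each is highest in that group, and its rise there is among the counts below. In NP-specific against naive B cells 8 were higher and none was lower, against 8.13 and 10.4% of all genes, with a median log2 change of 2.10 against -0.16. The largest rises were those of Zbtb32, a zinc finger repressor (6.61), Cd36, a scavenger receptor (3.46), and Asb2 (2.88). Cd36 had 12.5 to 18.3 TPM in naive B cells, 167 to 209 in the NP-specific group and 31.2 to 43.6 in PCs, and Fcrl5 had means of 27.4, 120.6 and 2.64. Itgam encodes CD11b and marks B-1 cells of the body cavities but also neutrophils, macrophages and dendritic cells. Of these only F4-80+ macrophages were named in the dump gate, and NP-specific B cells were also gated as B220+ and NP+. Itgam had 15.6, 16.0 and 12.3 TPM in NP-specific B cells, against 2.09 to 2.73 in naive B cells. The first and the third of these NP-specific libraries had 0.321 and 0.634 TPM over the neutrophil markers. The 7 macrophage markers summed to 4.67 to 5.73 TPM in naive and 1.97 to 4.43 in the NP-specific group. Of the 5 dendritic cell markers Flt3 alone passed as higher there, Zbtb46, Siglech and Xcr1 did not pass (log2 changes of -0.14, -0.29 and -0.40), and Itgax, below the filter, had 0.946, 1.16 and 0.172 TPM in the NP-specific libraries and 0.141 to 0.232 in naive ones. The part of these cells in the Itgam level was not tested. Against the naive group 5 were higher in PCs, led by Mzb1, a chaperone of antibody secretion (367.3 to 16220 TPM), Ctla4 and Arid3a, and 4 were lower, led by Tm6sf1, Fcrl5 and Asb2, against 11.4 and 26.3% of all genes. Against NP-specific B cells Mzb1, Ctla4 and Arid3a were higher in PCs and 7 were lower, led by Zbtb32, Fcrl5 and Asb2, against 9.93 and 22.3%.

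Of 7 genes for follicular identity and recirculation, Fcer2a (CD23), Ccr7 and Cxcr5 fell in NP-specific against naive B cells, 3 of 7 against 10.4% of all genes, and none passed as higher, with a median of -0.78. Klf2, a regulator of recirculation, lay the other way, at 58.0 to 122.1 TPM in NP-specific libraries and 38.0 to 44.4 in naive ones, just under 2-fold (log2 change 0.98, limma adjusted p = 0.00621). Fcer2a, whose absence from the surface separates MZ from follicular cells, had 796 to 856 TPM in naive, 189 to 225 in NP-specific and 0.823 to 2.02 in PC libraries (log2 change -2.01, limma adjusted p = 6.1e-07, for the first step). Its level in NP-specific B cells was above that of Cr2 (206.2 ± 18.3 against 153.8 ± 20.1 TPM, SD, n = 3). All 7 fell in PCs against both other groups, where 26.3% of all genes fell against naive and 22.3% against NP-specific B cells. These 7 genes were also chosen with earlier results of these data known.

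**Figure D4:**
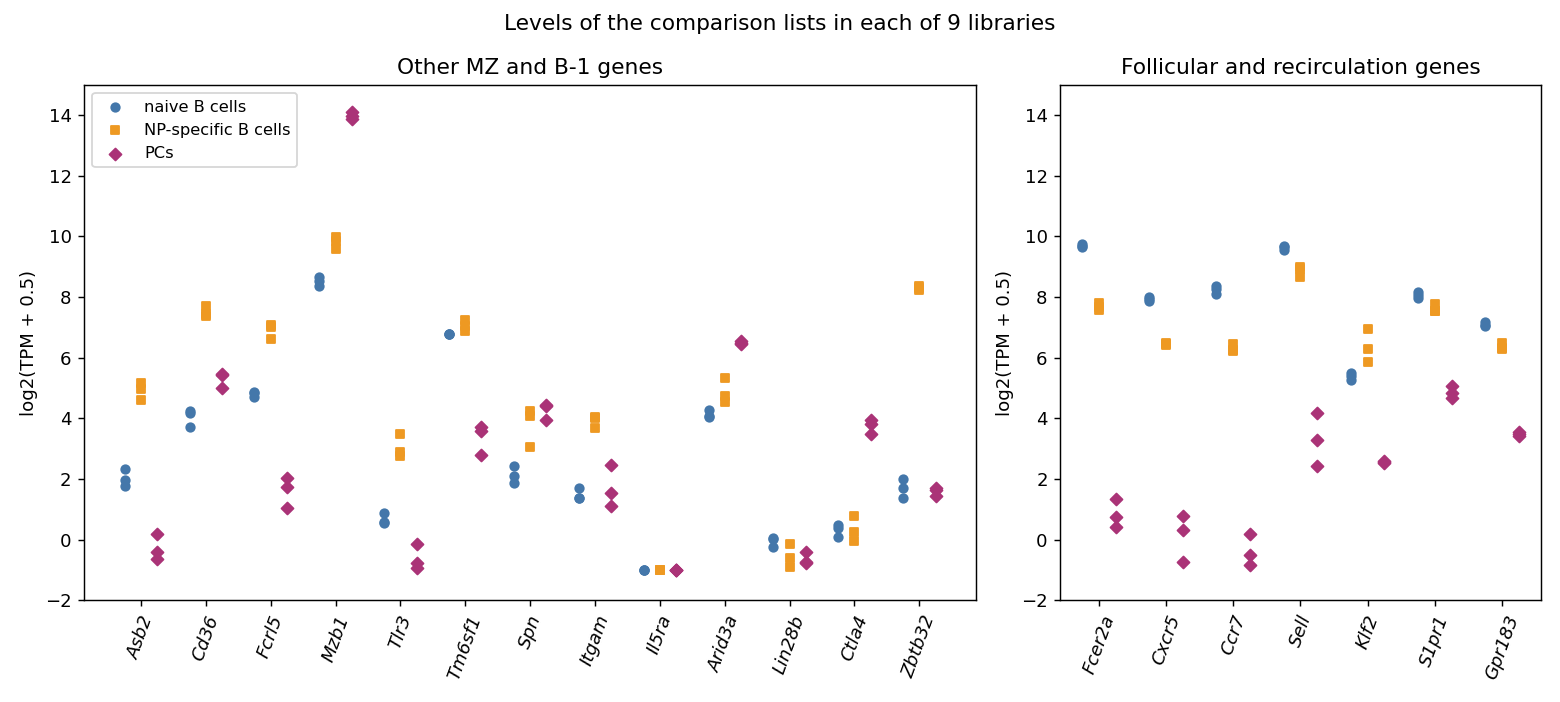
Levels of 13 other MZ and B-1 genes (left) and 7 follicular and recirculation genes (right) as log2(TPM + 0.5) in each of 9 libraries. Among the left-hand genes 8 are higher in NP-specific than in naive B cells, most of all Zbtb32, and on the right Fcer2a, Cxcr5 and Ccr7 are lower, with PCs lowest for every follicular gene.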

How the data were processed

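RNA was sequenced from 9 libraries, made with a template-switching kit that does not mark strand. The paper names HiSeq and NextSeq machines, and which of them read which library was not known here. The authors pseudoaligned reads with kallisto, with mm10 named in the submitters' processing notes, and deposited TPM per gene symbol with Ig genes kept or left out (322 genes), and log2 values from voom. The deposited log2 values also gave each library's depth. TPM of the table without Ig genes, scaled to the column sum, was passed to voom and limma 3.58.1 (R 4.3.3) as 3 group means over all 9 libraries. A gene was tested if 3 or more libraries had a TPM of 1 or more, with Benjamini-Hochberg adjustment over all 12892. Changes are on the log2(TPM + 0.5) scale and understate those of low genes. The fit was tested on simulated data. The 10 genes and all lists were chosen with earlier results of these data known. Named were all 10 genes, relatives, up to 3 genes per list and direction with the largest change, and the nearest profiles. Other genes named for their role were chosen after their values were seen. Coordinates are from GENCODE M21 (GRCm38) and promoters from RefSeq (GRCm38.p6). The alternatives were scaling, filters, offsets, input values, Ig genes, fewer libraries and a replicate block.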

Additional observations from a re-analysis of the deposited data

How the results depend on the processing

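Over 627 alternative values of the 30 changes of single genes, 607 kept their direction and their side of the thresholds, 12 fell below a threshold, 6 came above one and 2 turned. The 6 were Cd9 between PCs and NP-specific B cells with median-of-ratios scaling (1.2) and quantile normalization (1.11), Cd1d1 with Ig genes kept for PCs against naive (-1.48) and NP-specific B cells (-2.10) and without PC replicate 1 (-1.03 against the latter), and Cd5 between NP-specific and naive B cells with quantile normalization (1.16). Cd1d1 with Ig genes kept was at -0.07 and -0.83 relative to the median of all genes tested. The 2 that turned were Cd9 with Ig genes kept between PCs and NP-specific B cells (-0.38, 0.81 without Ig genes) and Cd1d1 between PCs and naive B cells with median-of-ratios scaling (0.21, against -0.28). Relative to the median of all genes tested neither turned. On that scale Cd9 was 0.89, against 1.11 without Ig genes, and Cd1d1 was 0.195, against 0.193 with scaling to the column sum. With Ig genes kept, other changes did turn on that scale between PCs and naive B cells. These were Cd5 (0.54, against -0.82 without Ig genes) and Cd1d1 (-0.07, against 0.19). Median-of-ratios scaling shifted the changes of single genes by a median of 0.11, 0.49 and 0.38 in the 3 comparisons. With Ig genes kept the median over all genes tested was -0.16, -1.40 and -1.27, from -0.16, -0.47 and -0.30. With the former, calls over all genes were 1258 higher and 1022 lower (1048 and 1340 by column sum) for NP-specific against naive B cells, 2349 and 1814 (1473 and 3397) for PCs against naive B cells and 2023 and 1788 (1280 and 2870) for PCs against NP-specific B cells. Cd5 between PCs and naive B cells was under 2-fold with that scaling (-0.80), quantile normalization (-0.78), an offset of 1 (-0.81) and Ig genes kept (-0.86), and Cd9 there was 0.97 with Ig genes kept. Bhlhe41 between PCs and naive B cells had a limma adjusted p of 0.0817 without a filter on low values. Calls among the 10 genes lay between 5 and 7, 7 and 9 and 7 and 9 over all alternatives. The Notch pathway list had 1 call in place of 4 between NP-specific and naive B cells and 7 in place of 11 between PCs and naive B cells at a mean TPM of at least 10, where 17 of its genes were tested and calls over all 7278 genes were 1179 and 2965, and 20 and 13 in place of 11 and 7 in the PC comparisons with Ig genes kept, where calls over all 12324 genes were 551 higher and 7943 lower against naive and 420 and 7355 against NP-specific B cells. The replicate block left 6, 9 and 8 of the 10 genes called and moved the calls over all genes to 2453, 4898 and 4238, from 2388, 4870 and 4150. Same-numbered libraries did not deviate together (correlations -0.0749 to 0.0675), and not every library correlated best with its own number. Depth limits Cd5 and, in PCs, S1pr3.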
